A study of Mus musculus with 4 samples.

Results

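The ligands and receptors of the tumour necrosis factor (TNF) superfamily, the TRAF adaptors and the kinases, inhibitors and caspases next to them were examined in RNA sequencing (RNA-seq) of mouse female germline stem cells (FGSCs). Members were protein-coding genes chosen by a rule on symbols, written with earlier results of these data known. Their names begin with Tnfsf, Tnfrsf, Ripk, Tradd, Birc2, Birc3, Tnfaip1, Tnfaip2 or Tnfaip8, or with Traf or Casp followed by a digit. Tnf, Ltb, Fas, Ltbr, Fadd and Cflar were included by name. The members numbered 53 of the 12701 genes measured. Another 20 annotated symbols meet the same rule, Fasl, Tnfsf11 and Tnfrsf11a among them, and were not analysed here.

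The comparison was between shGm26917 FGSCs, in which a lentivirus delivered a hairpin to knock down the lncRNA Gm26917, and shNC FGSCs, the matching control, both of a single line derived from ovary per the labels. Each group held 2 libraries. Both hairpins were delivered by lentivirus in the study, and its methods describe drug selection of infected cells. The study designed 3 hairpins against Gm26917, but the one present in the sequenced cells and the age of the animals behind the line are not given in the sources. The study calls its sequencing replicates biological, but the sources do not say that the libraries within a group were separate cultures, so the p-values cover the spread between these libraries and no more.

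TNF superfamily ligands are mostly trimeric proteins of the cell surface, some of them shed, that bind and cluster receptors of the TNF receptor superfamily. Receptors without a death domain recruit TRAF proteins, and TRAF2 brings in the ubiquitin ligases cIAP1 and cIAP2, which leads to NF-kB and JNK signalling and to transcription of inflammatory and survival genes. Receptors with a death domain can instead assemble FADD and caspase-8, which c-FLIP restrains, and so start apoptosis. The family is best known from immune cells, and in the ovary TNF has been studied mainly in follicle loss.

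Expression was measured in CPM, counts scaled to a common library size, and the genes listed added up to 755159 and 771715 CPM in the shGm26917 libraries and to 766064 and 768440 CPM in the shNC libraries. At the targeted locus, Gm26917 had 136.5 and 104.2 CPM in shGm26917 and 155.1 and 156.6 CPM in shNC (log2 fold change -0.39, limma adjusted p = 0.0696). Gm42418 had 729.1 and 686.5 CPM against 2882 and 3462 CPM (log2 fold change -2.16, limma adjusted p = 5.567e-05). The annotated Gm26917 thus did not pass the test in this RNA-seq. The study assessed its knockdown by RT-qPCR, a separate measure. How reads were assigned between Gm26917 and Gm42418 was not tested. Of 17 female germline stem cell and germ cell markers 5 were listed, with 0 higher and 2 lower, and the defining germ cell genes Ddx4 and Dazl were not among them. The listed markers of other cell types were 9 of 16 for mast cells (2 higher, 3 lower, summing to 2981 and 3088 CPM in shGm26917 and 2929 and 2922 CPM in shNC), 9 of 10 for fibroblasts (1 higher, 1 lower), 4 of 10 for macrophages (1 higher, 1 lower), 3 of 7 for endothelium (0 higher, 1 lower), 3 of 10 for granulosa cells (0 higher, 3 lower, summing to 40.66 and 39.89 CPM against 74.83 and 80.44 CPM) and 0 of 10 for T and B lymphocytes. At an unadjusted p under 0.05 with limma, the lists with 0 higher held 1 higher endothelial gene and 0 higher germline or granulosa genes. The part of these markers in the results on members was not tested.

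The genes of the TNF system were more often lower than higher after the knockdown. Of the 53 members, 21 passed the test (39.6%), and of these 15 were lower (28.3%) and 6 were higher (11.3%) in shGm26917 FGSCs. Over all genes 23.1% passed, 11.5% lower and 11.6% higher. Genes were called at an adjusted p under 0.05 with limma, fitted on log2(CPM + 0.5) of all genes, with p-values adjusted by the Benjamini-Hochberg method. Fold changes are on that scale and understate the change of genes with low CPM. The median log2 fold change of the members was -0.13, against -0.01 over all genes. The shGm26917 libraries held 1378.9 and 1365.6 CPM of member transcripts in sum, below the 1524.9 and 1520.0 CPM of the shNC libraries. In bulk RNA, fewer cells of a type and less RNA per cell cannot be told apart.

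With the thresholds of the study (fold of 1.5 or more, unadjusted p up to 0.05), 2 members were higher, Tnfrsf13b and Tnfsf10, and 6 were lower, Traf1, Traf5, Birc3, Ltb, Tnfrsf12a and Tnfaip2. The share of all genes past those thresholds was 7.01%, with 3.25% higher and 3.76% lower. The libraries of the groups did not overlap for 11 members that were higher and 28 that were lower in shGm26917. This was the case for 64.2% of all genes, 31.5% higher and 32.7% lower. Among the 22 members with a mean under 10 CPM 6 were called (27.3%), and among the 31 with a higher mean 15 were called (48.4%). Over all genes, of any level, 23.1% were called. That share was not split by level, so nothing is drawn from these counts. Of the 32 members that did not pass, 11 had a positive and 21 a negative log2 fold change, and of all genes that did not pass, 4771 had a positive and 5000 a negative one.

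**Figure D1:**
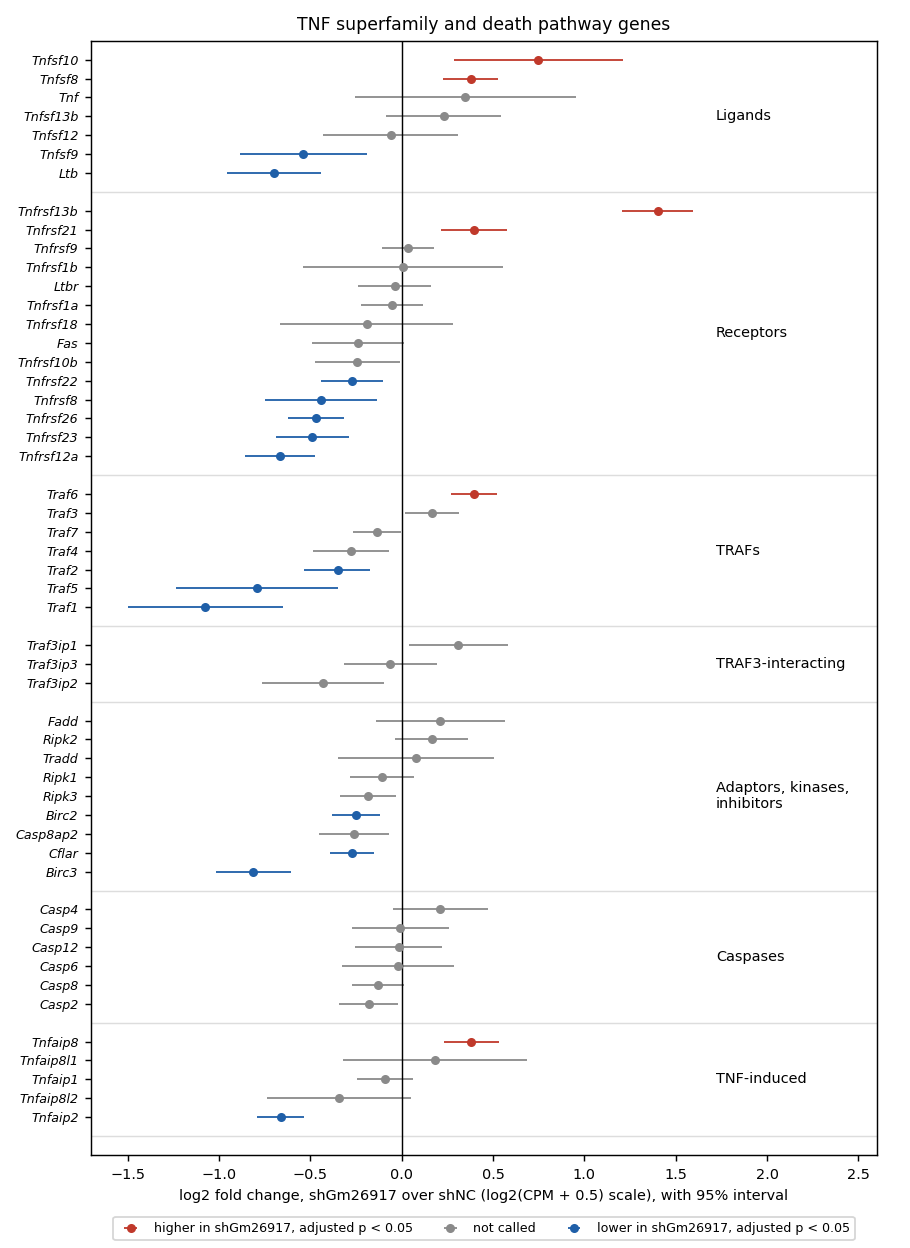
Log2 fold change of shGm26917 over shNC on the log2(CPM + 0.5) scale (x axis) for 51 members (rows), grouped by role; points are limma estimates and lines their 95% intervals. The higher members (red) run up to 1.40 for Tnfrsf13b, the lower members (blue) down to -1.08 for Traf1, and members not called are grey.

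Before the members are described by role, the promoters of 3 lower genes are given, since they are the called members whose promoter window holds an NF-kB motif, the sequence bound by the factor that most TNF receptors activate. Windows of 300 bases around RefSeq start sites (GRCm38.p6) were at hand for 42 members and searched on both strands. The NF-kB motif occurred in 3 of 11 lower members with a window (27.3%), 0 of 5 higher members and 4 of 26 members not called (15.4%), against 9.55% of all 27025 genes with such a window. The AP-1 motif TGANTCA occurred in 1 of 11 lower members, 0 of 5 higher members and 3 of 26 members not called, against 8.97% of all, and the serum response element in 0 of 42 members, against 1.81%. The stretches below lie upstream of the RefSeq start site (GENCODE places the start of Ltb and Tnfaip2 further upstream), are written 5′ to 3′ on the strand of the gene, and carry the motifs in capitals: an NF-kB motif in each, and in Tnfrsf8 also an AP-1 motif, TGAGTCA, which does not overlap the NF-kB motif. A motif match is a description of these letters, not evidence of binding.
Ltb, lymphotoxin beta, chr17:35194380-35194469, plus strand: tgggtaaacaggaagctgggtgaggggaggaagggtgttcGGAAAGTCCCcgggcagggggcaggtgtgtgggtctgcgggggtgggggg
Tnfaip2, a TNF-induced protein, chr12:111442597-111442660, plus strand: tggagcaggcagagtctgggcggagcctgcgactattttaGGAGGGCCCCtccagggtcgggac
Tnfrsf8, the receptor CD30, chr4:145315250-145315372, minus strand: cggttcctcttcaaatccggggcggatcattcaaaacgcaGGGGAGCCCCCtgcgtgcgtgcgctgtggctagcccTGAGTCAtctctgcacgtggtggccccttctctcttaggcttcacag

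Among the 7 ligand genes, Tnfsf10 and Tnfsf8 were higher and Ltb and Tnfsf9 were lower in shGm26917 FGSCs, and 3 did not pass. The share called was 57.1%, against 23.1% of all genes. Tnfsf8, which encodes CD30 ligand, had 32.20 and 33.00 CPM in shGm26917 and 25.30 and 24.66 CPM in shNC. Both shGm26917 libraries stood above both shNC libraries (log2 fold change 0.38, SE 0.065, adjusted p = 0.00735). Tnfsf10, which encodes TRAIL, the ligand of the TRAIL death receptor, had 1.990 and 2.693 CPM in shGm26917 and 1.318 and 1.052 CPM in shNC. These low values were also separated by group (log2 fold change 0.75, SE 0.198, adjusted p = 0.0331), but the call was lost without shGm26917 replicate 2 (log2 fold change 0.57, adjusted p = 0.249) and without shNC replicate 2 (0.63, adjusted p = 0.0581).

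Ltb, which encodes lymphotoxin beta, the membrane anchor of lymphotoxin heterotrimers and 1 of the genes whose promoter is shown above, had 5.182 and 4.837 CPM in shGm26917 and 8.475 and 8.401 CPM in shNC. The shGm26917 libraries were lower without overlap (log2 fold change -0.70, SE 0.110, adjusted p = 0.00513), and leaving out any library kept the call. Tnfsf9, which encodes 4-1BB ligand, had 3.009 and 2.466 CPM in shGm26917 and 4.332 and 4.045 CPM in shNC (log2 fold change -0.54, adjusted p = 0.0385). Its groups did not overlap, but the call needed 3 of the 4 libraries: it was lost without shGm26917 replicate 1 (-0.66, adjusted p = 0.0562), without shGm26917 replicate 2 (-0.42, adjusted p = 0.249) and without shNC replicate 1 (-0.50, adjusted p = 0.0700). Tnfsf9 also overlaps the lincRNA Gm11110 on the opposite strand, at 2.117 and 1.739 CPM in shGm26917 and 1.256 and 1.400 CPM in shNC, and since strand use in counting is not given, reads of the pair cannot be told apart.

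Tnf itself, the ligand that names the family, stayed low and did not pass, with 3.037 and 3.604 CPM in shGm26917 and 1.758 and 3.461 CPM in shNC. The groups overlapped because shNC replicate 2 stood beside the shGm26917 libraries (log2 fold change 0.35, 95% interval -0.26 to 0.96, adjusted p = 0.371). The value depended on the shNC library used: it was 0.76 without shNC replicate 2 and -0.06 without shNC replicate 1. Tnf and Ltb are neighbours on chromosome 17, 3.1 kb apart. Tnfsf13b, which encodes BAFF, had 3.622 and 3.635 CPM against 3.013 and 3.034 CPM in shNC, separated by group but not called (log2 fold change 0.23, adjusted p = 0.261). Tnfsf12, which encodes TWEAK, lay between 2.099 and 2.393 CPM in all 4 libraries (log2 fold change -0.06, adjusted p = 0.814), and it shares its strand and position with an annotated readthrough gene, so that reads may be split.

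Of the 14 receptor genes, Tnfrsf13b and Tnfrsf21 were higher, Tnfrsf12a, Tnfrsf23, Tnfrsf26, Tnfrsf8 and Tnfrsf22 were lower, and 7 did not pass. The share called was 50%, against 23.1% of all genes. Tnfrsf13b (chromosome 11, 61126755 to 61149372, plus strand, mm10) encodes TACI, a receptor of BAFF and APRIL known from B cells. It had 29.28 and 30.16 CPM in shGm26917 and 10.42 and 11.47 CPM in shNC. The difference between the groups far exceeded that between libraries of a group (log2 fold change 1.40, SE 0.083, adjusted p = 0.000177), and it was the largest change of any member in either direction. Each leave-one-out fit kept it, at 1.34 to 1.47. The 10 T and B lymphocyte markers checked, Cd79a and Ms4a1 among them, were not listed. Tnfrsf21, which encodes death receptor 6, had 20.50 and 20.39 CPM in shGm26917 and 15.07 and 15.72 CPM in shNC. Its libraries were tight and separated by group (log2 fold change 0.40, adjusted p = 0.0111), but without shGm26917 replicate 1 or 2 it did not pass at much the same log2 fold change (0.395 or 0.402, adjusted p = 0.05018 or 0.05015).

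Tnfrsf12a, which encodes Fn14, the receptor of TWEAK and a growth factor-induced gene, had 32.59 and 29.97 CPM in shGm26917 and 46.77 and 53.32 CPM in shNC. All shGm26917 values lay well below the shNC values (log2 fold change -0.67, SE 0.082, adjusted p = 0.00221). Tnfrsf8, which encodes CD30 and whose promoter is shown above, had 5.098 and 4.584 CPM in shGm26917 and 7.345 and 6.184 CPM in shNC. Its groups were apart, yet its adjusted p of 0.0491 (log2 fold change -0.44) was the closest to the threshold of all called members, and it was lost with 3 of the 4 libraries left out in turn: 0.0870 without shGm26917 replicate 1 (log2 fold change -0.51), 0.234 without shGm26917 replicate 2 (-0.37) and 0.121 without shNC replicate 1 (-0.33).

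A cluster of 3 receptor genes on the minus strand of chromosome 7 was lower as a whole. Tnfrsf26 (143607659 to 143628722), Tnfrsf22 (143634806 to 143649661) and Tnfrsf23 (143665809 to 143685872) lie 6.1 and 16.1 kb apart. Tnfrsf22 and Tnfrsf23 encode decoy receptors that bind TRAIL in the mouse without a death domain, and Tnfrsf26 encodes a related receptor. Tnfrsf26 had 25.91 and 26.11 CPM in shGm26917 and 35.22 and 37.14 CPM in shNC (log2 fold change -0.47, SE 0.066, adjusted p = 0.00338), and Tnfrsf23 had 23.90 and 21.44 CPM against 30.36 and 33.67 CPM (log2 fold change -0.49, SE 0.085, adjusted p = 0.00752). In both genes each shGm26917 library was below each shNC library, and the calls held with any library left out. Tnfrsf22 had 36.64 and 32.64 CPM in shGm26917 and 41.35 and 42.28 CPM in shNC (log2 fold change -0.27, SE 0.073, adjusted p = 0.0347). Its groups did not overlap either, but the call was lost without shGm26917 replicate 2 (-0.19, adjusted p = 0.255) and without shNC replicate 2 (-0.25, adjusted p = 0.0543). Tnfrsf22 and Tnfrsf23 share 719 exonic 50-base words, 17.3% and 18% of each, so reads may have been split between them and their values are uncertain in part.

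The receptors with the classical roles did not pass. Tnfrsf1a, the main TNF receptor of most cells, had 31.37 and 29.91 CPM in shGm26917 and 30.45 and 33.18 CPM in shNC (log2 fold change -0.05, 95% interval -0.22 to 0.12), and Ltbr, the lymphotoxin receptor, had 12.26 and 12.01 CPM against 12.56 and 12.41 CPM (-0.04, interval -0.24 to 0.16). Tnfrsf1b, the second TNF receptor, lay between 1.758 and 2.722 CPM with both groups spread over that range. Tnfrsf9, which encodes 4-1BB, had the highest level per kilobase of exon among the members, at 46.9 CPM per kb in shGm26917 and 45.8 CPM per kb in shNC, and its interval of -0.11 to 0.18 around a log2 fold change of 0.04 was narrow. Fas, the death receptor of Fas ligand, had 7.466 and 6.733 CPM in shGm26917 and 8.475 and 8.440 CPM in shNC, lower in both libraries but not called (log2 fold change -0.24, adjusted p = 0.150). Tnfrsf10b, the TRAIL death receptor, had 17.37 and 16.64 CPM against 18.46 and 22.11 CPM (-0.24, adjusted p = 0.123). Its log2 fold change was -0.37 without shNC replicate 1 and -0.12 without shNC replicate 2. Tnfrsf18, which encodes GITR, was under 2 CPM in all libraries (log2 fold change -0.19, adjusted p = 0.532).

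Each of the 7 ligand genes had a receptor gene among the members, and no ligand and its receptor were both called in the same direction. For CD30 the ligand gene Tnfsf8 was higher (log2 fold change 0.38) and the receptor gene Tnfrsf8 lower (-0.44). For TRAIL the ligand gene was higher (0.75), the decoy receptor genes Tnfrsf22 and Tnfrsf23 were lower (-0.27 and -0.49), and the death receptor gene Tnfrsf10b was not called. In the pairs TWEAK with Fn14 and BAFF with TACI the receptor gene alone was called, lower for Tnfrsf12a and higher for Tnfrsf13b. For lymphotoxin beta with its receptor and for 4-1BB the ligand gene alone was called, lower in both cases. Tnf and its receptor genes Tnfrsf1a and Tnfrsf1b were not called. Whether the changes of a ligand and its receptor differ was not tested.

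**Figure D2:**
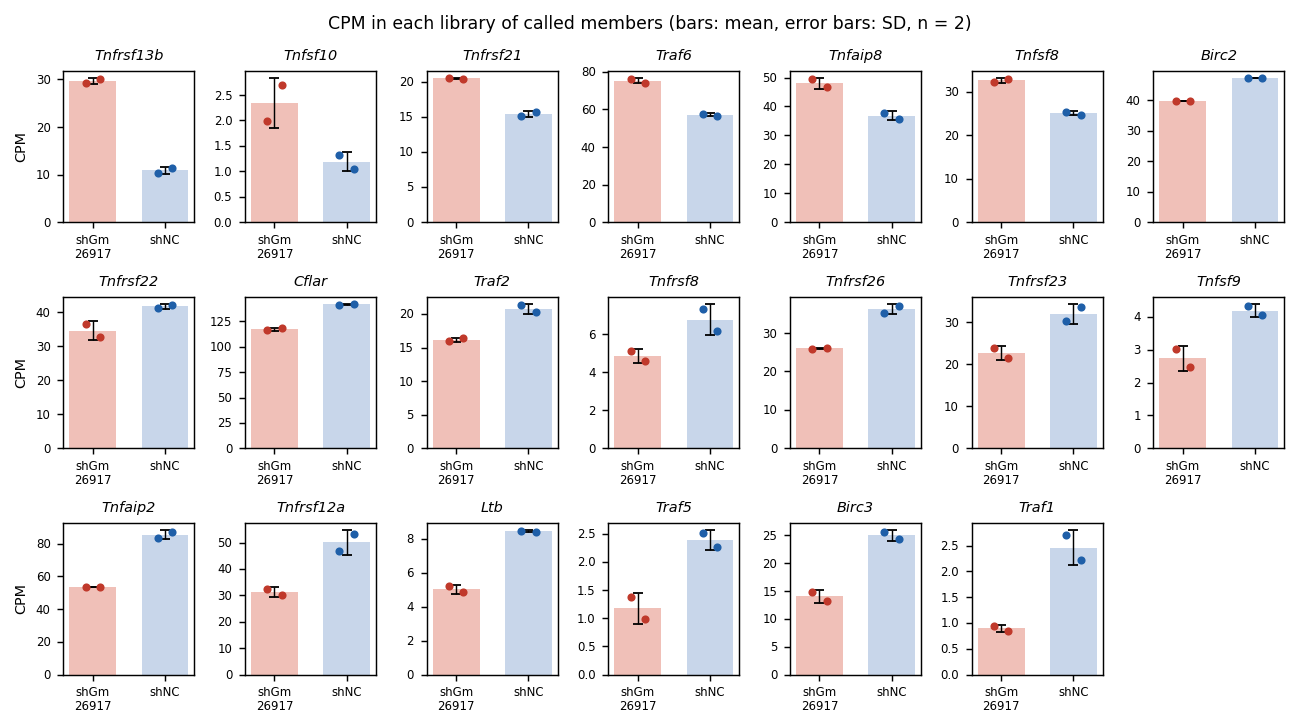
CPM (y axis, from 0, scaled per gene) of 20 called members in shGm26917 (left, red) and shNC (right, blue) libraries; points are libraries, bars means and error bars SD (n = 2). In every panel the 2 shGm26917 points lie on one side of the 2 shNC points, with the widest separation for Tnfrsf13b at 29.28 and 30.16 CPM against 10.42 and 11.47 CPM.

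The TRAF adaptors moved in both directions. Of the 7 genes, Traf6 was higher and Traf1, Traf5 and Traf2 were lower, and the 3 others had an unadjusted p under 0.05 without passing the adjustment. In all 7 the groups did not overlap, 2 higher and 5 lower. Of the 7, 57.1% were called, against 23.1% of all genes. Over all genes, 4718 of 12701 had an unadjusted p under 0.05 and 64.2% had groups without overlap. Traf6 (chromosome 2, 101678429 to 101701669, plus strand) encodes the ubiquitin ligase that serves CD40 and the interleukin-1 and Toll-like receptors. It had 76.42 and 74.35 CPM in shGm26917 and 57.75 and 56.63 CPM in shNC. The gap between the groups was many times the spread of the libraries (log2 fold change 0.40, SE 0.055, adjusted p = 0.00329), and no single library decided it.

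Traf1 (chromosome 2, 34941750 to 34961772, minus strand) encodes the TRAF that lacks a RING domain and acts together with TRAF2. It had 0.9472 and 0.8535 CPM in shGm26917 and 2.699 and 2.217 CPM in shNC. It was the member with the most negative log2 fold change, at -1.08 (SE 0.182, adjusted p = 0.00682), and at -1.193 to -0.957 with each library left out. Its level was close to the lowest that the table holds. Both shGm26917 values lie under 1.003 CPM, which the second-highest library of every listed gene reached. Traf1 was thus listed only through its shNC libraries, so its fall is not independent of that filter. Traf5, which binds CD40 and lymphotoxin receptor, had 1.372 and 0.9800 CPM in shGm26917 and 2.511 and 2.260 CPM in shNC (log2 fold change -0.79, SE 0.190, adjusted p = 0.0229). The groups were apart, but without shGm26917 replicate 2 the call was lost (-0.62, adjusted p = 0.147). The table holds a second Traf5 entry with the same values on a patch scaffold, so reads of Traf5 may have been split and its CPM is uncertain.

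Traf2, which encodes the adaptor that carries cIAP1 and cIAP2 to TNF receptors, had 15.94 and 16.39 CPM in shGm26917 and 21.27 and 20.26 CPM in shNC. The shGm26917 libraries were lower by more than the spread of either group (log2 fold change -0.35, SE 0.078, adjusted p = 0.0174), but the call was lost without shGm26917 replicate 1 (-0.33, adjusted p = 0.0897) or 2 (-0.37, adjusted p = 0.0628). Traf3, which restrains the kinase NIK of the alternative NF-kB pathway, had 41.31 and 41.67 CPM against 38.23 and 35.66 CPM in shNC (log2 fold change 0.17, adjusted p = 0.102). This value was 0.22 without shNC replicate 1 and 0.12 without shNC replicate 2. Traf4 had 14.15 and 14.26 CPM in shGm26917 and 16.32 and 18.40 CPM in shNC (-0.28, adjusted p = 0.0617). Its log2 fold change was -0.36 without shNC replicate 1 and -0.19 without shNC replicate 2. Traf7 had 69.17 and 69.55 CPM against 74.39 and 78.06 CPM (-0.14, adjusted p = 0.122).

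The 3 genes named for binding TRAF3 were not called with limma, although 2 had an unadjusted p under 0.05. In a limma fit with neither a variance trend nor robust moderation Traf3ip2 (adjusted p = 0.0391) and Traf3ip1 (0.0457) passed. Traf3ip2, which encodes the interleukin-17 receptor adaptor Act1, had 2.563 and 2.624 CPM in shGm26917 and 3.453 and 3.889 CPM in shNC (log2 fold change -0.43, adjusted p = 0.0677). Traf3ip1, which encodes a protein of intraflagellar transport, had 5.906 and 5.753 CPM against 4.583 and 4.628 CPM (0.31, adjusted p = 0.0962). Both were separated by group, in opposite directions, while Traf3ip3 overlapped (-0.06, adjusted p = 0.719).

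Among the 9 adaptors, kinases and inhibitors next to the receptors, 3 were called, all lower (33.3%). Over all genes 23.1% were called, 11.5% lower. The 3 were the inhibitors of apoptosis Birc3 and Birc2 and the caspase-8 inhibitor Cflar. Birc3 (chromosome 9, 7848699 to 7873186, minus strand) encodes cIAP2, itself a known NF-kB target. It had 14.90 and 13.19 CPM in shGm26917 and 25.67 and 24.35 CPM in shNC. The shGm26917 libraries were below the shNC libraries by far more than either group's spread (log2 fold change -0.81, SE 0.088, adjusted p = 0.00147), with every library left out in turn. Birc2, which encodes cIAP1 and starts 11.6 kb away, had 39.90 and 39.70 CPM in shGm26917 and 47.41 and 47.36 CPM in shNC. The difference was small and the libraries tight (log2 fold change -0.25, SE 0.057, adjusted p = 0.0197), and the call was lost without shGm26917 replicate 1 (-0.252, adjusted p = 0.0962) or 2 (-0.245, adjusted p = 0.116), at nearly the same log2 fold change. Birc2 and Birc3 share 65 exonic 50-base words, 1.42% and 1.28% of each.

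Cflar, which encodes c-FLIP, the catalytically inactive relative of caspase-8, had 116.1 and 118.3 CPM in shGm26917 and 141.5 and 141.9 CPM in shNC. It was lower without overlap (log2 fold change -0.27, SE 0.051, adjusted p = 0.0101), but not called without shGm26917 replicate 1 (-0.26, adjusted p = 0.0703). The adaptor genes Fadd (log2 fold change 0.21, adjusted p = 0.354) and Tradd (0.08, adjusted p = 0.793) overlapped between groups. The log2 fold change of Fadd was 0.41 without shNC replicate 1 and 0.01 without shNC replicate 2.

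Ripk1, the kinase at the fork between survival and death signals, had 45.64 and 42.62 CPM in shGm26917 and 50.48 and 44.95 CPM in shNC (log2 fold change -0.11, limma adjusted p = 0.330), with overlap. The gene Serpinb6a overlaps it on the opposite strand, at 113.6 and 117.8 CPM in shGm26917 and 134.9 and 133.2 CPM in shNC. Since strand use in counting is not given, reads where they overlap cannot be told apart. Ripk3, the kinase of necroptosis, had 42.87 and 42.68 CPM against 46.58 and 50.83 CPM (-0.18, adjusted p = 0.0802). Its log2 fold change was -0.25 without shNC replicate 1 and -0.12 without shNC replicate 2. Ripk2, which serves the NOD receptors, was separated by group in the other direction but not called (0.17, adjusted p = 0.204). Casp8ap2, which encodes the caspase-8-associated protein FLASH, had 34.80 and 33.29 CPM in shGm26917 and 44.01 and 38.00 CPM in shNC (-0.26, adjusted p = 0.0555). Its log2 fold change was -0.37 without shNC replicate 2 and -0.16 without shNC replicate 1.

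Of the 8 caspase genes, 6 are described here and these 6 were not called, among them Casp8 and Casp9, the initiators of the death receptor and mitochondrial pathways. Casp8 had 44.37 and 41.73 CPM in shGm26917 and 46.77 and 47.45 CPM in shNC (log2 fold change -0.13, adjusted p = 0.168), and Casp9 overlapped at 7.545 to 8.851 CPM over all libraries (-0.01, adjusted p = 0.967). Casp2 was separated and lower (-0.18, adjusted p = 0.103). Casp6 overlapped and did not pass either (-0.02, adjusted p = 0.938). Casp4, an inflammatory caspase, had 30.95 and 39.77 CPM in shGm26917 and 30.89 and 29.56 CPM in shNC (0.21, adjusted p = 0.212). Only shGm26917 replicate 2 stood high, and the log2 fold change was 0.39 without shGm26917 replicate 1 and 0.03 without shGm26917 replicate 2. Casp12, its neighbour 8.6 kb away, overlapped (-0.02, adjusted p = 0.927).

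Of the 5 genes named as TNF-induced, Tnfaip8 was higher, Tnfaip2 was lower and 3 did not pass. The share called was 40%, against 23.1% of all genes. Tnfaip2 (chromosome 12, 111442469 to 111455018, plus strand) encodes a membrane-tubulating protein, and its promoter is shown above. It had 53.77 and 53.74 CPM in shGm26917 and 83.37 and 87.35 CPM in shNC. The groups were far apart (log2 fold change -0.66, SE 0.056, adjusted p = 0.000723), the smallest adjusted p of any lower member. Tnfaip8, which encodes a protein reported to counter apoptosis, had 49.35 and 46.69 CPM in shGm26917 and 37.85 and 35.70 CPM in shNC, higher without overlap (log2 fold change 0.38, SE 0.064, adjusted p = 0.00685). Both calls held with any library left out. Of the paralogs of Tnfaip8, Tnfaip8l2 had 4.235 and 3.730 CPM in shGm26917 and 6.089 and 4.395 CPM in shNC (-0.34, adjusted p = 0.184). Its log2 fold change was -0.56 without shNC replicate 2 and -0.13 without shNC replicate 1. Tnfaip8l1 was at 1.256 to 2.087 CPM (0.18, adjusted p = 0.582). Tnfaip1 was close to even (-0.09, adjusted p = 0.352).

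With each library left out in turn, 12 of the 21 called members passed in all 4 such fits. The 4 higher ones were Tnfrsf13b, Traf6, Tnfaip8 and Tnfsf8, and the 8 lower ones included Traf1, Birc3, Ltb, Tnfrsf12a, Tnfaip2, Tnfrsf23 and Tnfrsf26. The number of members called was 16 without shGm26917 replicate 1, 13 without shGm26917 replicate 2, 24 without shNC replicate 1 and 22 without shNC replicate 2, and the share of all genes called moved the same way, at 14.3%, 12.5%, 27% and 27.6%. How many of all called genes pass in all 4 such fits was not counted. Some members not called with all libraries passed in a fit with 1 left out. Without shNC replicate 2 these were Tnf, Tnfaip8l2 and Casp8ap2, and without shGm26917 replicate 1 Casp4. Without shNC replicate 1 they were Fadd, Ripk3, Tnfrsf10b, Traf3 and Traf4. With 1 library left in a group, the fit takes that library to vary like those of the other group.

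**Figure D3:**
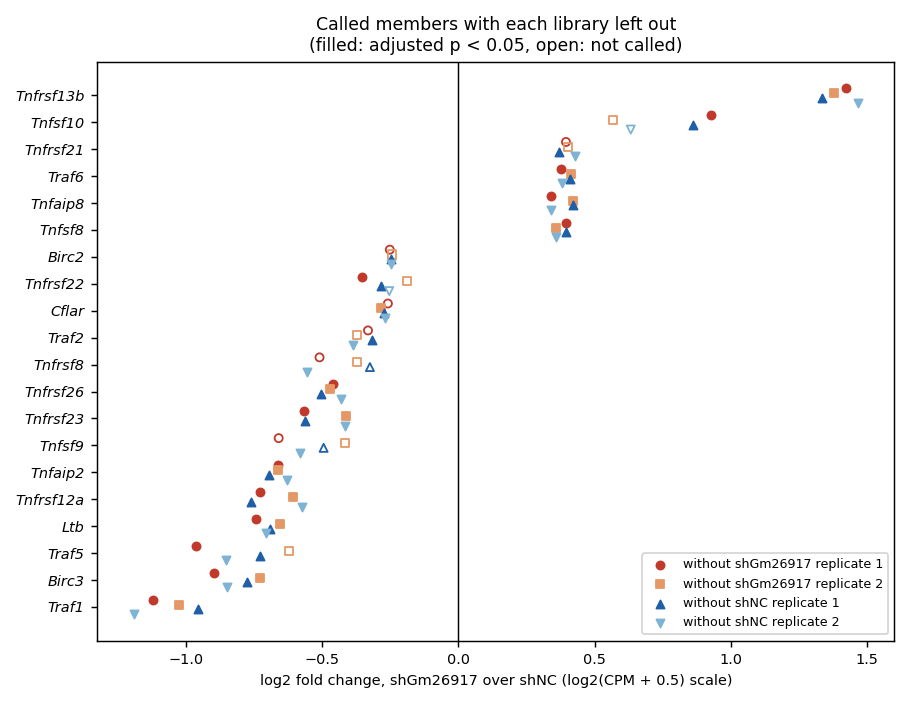
Log2 fold change of shGm26917 over shNC on the log2(CPM + 0.5) scale (x axis) of 20 called members (rows) with each of the 4 libraries left out (symbols); filled symbols were called at an adjusted p under 0.05 and open ones were not. None of these members changed sign, and open symbols occur for 9 of them, from Tnfsf10 at the top to Traf5 near the bottom.

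Other genes of the pathway were taken from lists written down for this purpose with earlier results of these data known. Of 43 signalling proteins of TNF and NF-kB, 42 were listed, and 12 of these were called (28.6%), 4 higher and 8 lower, with a median log2 fold change of 0.03. This share was near the 23.1% over all genes. The lowest p among the lower ones were those of Tnfaip3, Tnip1 and Nfkbiz. Tnfaip3, which encodes the ubiquitin-editing inhibitor A20, had 4.402 and 3.446 CPM in shGm26917 and 12.99 and 11.71 CPM in shNC (log2 fold change -1.55, SE 0.137, adjusted p = 0.000881). Tnip1, which encodes a partner of A20, had 27.66 and 26.55 CPM against 42.50 and 41.62 CPM (-0.62, adjusted p = 0.00119), and Nfkbiz, an atypical inhibitor that also acts as a co-activator, had 20.03 and 20.96 CPM against 33.27 and 37.96 CPM (-0.78, adjusted p = 0.00138). In all of these each shGm26917 library was below each shNC library. Among the higher ones the lowest p were those of the kinase genes Map2k4 (0.51, adjusted p = 0.0144) and Map3k5 (0.29, adjusted p = 0.0309) and of Tbkbp1, a partner of the kinase TBK1 (0.51, adjusted p = 0.0294).

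Genes of the execution of cell death were called about as often as all genes. Of 20 such genes 19 were listed, 1 of them (Fadd) also a member, and 5 were called (26.3%, against 23.1% of all genes), 3 higher and 2 lower, with a median log2 fold change of 0.10. The higher ones were Bid, which links death receptors to mitochondria (0.39, adjusted p = 0.00544), Diablo, a mitochondrial antagonist of inhibitors of apoptosis (0.37, adjusted p = 0.0232), and the nuclease gene Endog (0.62, adjusted p = 0.0245). The lower ones were Xiap, a caspase inhibitor (-0.27, adjusted p = 0.0152), and Naip5, a sensor of bacterial flagellin (-0.49, adjusted p = 0.0440).

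Of 34 textbook transcriptional targets of TNF and NF-kB 22 were listed, and 15 of these were called, 0 higher and 15 lower (68.2%) with limma, with a median log2 fold change of -0.75. At an unadjusted p under 0.05 the higher ones also numbered 0. Falls of some of these genes were known when the list was written, so its count is no independent evidence of a direction. Nfkbia and Bcl3 stand in the signalling list too. The 15 include a gene at 0.8079 and 0.7587 CPM in shGm26917 and 2.762 and 2.334 CPM in shNC. Like Traf1, it was listed only through its shNC libraries, so its fall is not independent of the filter at 1.003 CPM. The lowest p were those of Plau, the urokinase plasminogen activator, with 42.90 and 44.45 CPM in shGm26917 and 134.8 and 139.6 CPM in shNC (log2 fold change -1.64, adjusted p = 2.911e-05), of Ptgs2, the inducible cyclooxygenase, with 42.37 and 40.62 CPM against 145.1 and 171.2 CPM (-1.91, adjusted p = 4.907e-05), and of Mmp3, stromelysin, with 10.45 and 9.832 CPM against 34.32 and 37.13 CPM (-1.77, adjusted p = 5.671e-05). In these 3 genes both shGm26917 libraries were far below both shNC libraries. The 3 granulosa cell markers listed moved in the same direction, while 7 of the 10 on that list, Foxl2, Fshr and Amh among them, were not listed. The part of granulosa cells in this was not tested.

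**Figure D4:**
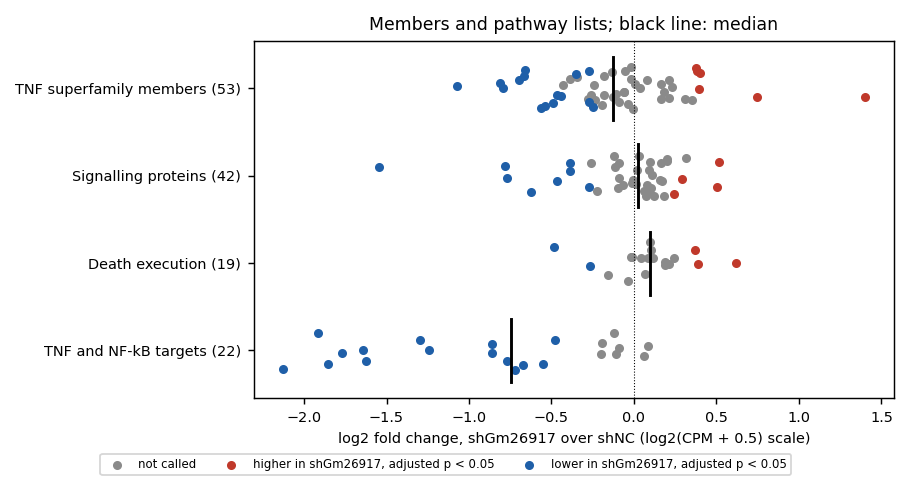
Log2 fold change of shGm26917 over shNC on the log2(CPM + 0.5) scale (x axis) of the 53 members and of 42 signalling, 19 death execution and 22 target genes (rows); each point is a gene, coloured by its call, and black lines are medians. The target genes lie furthest to the left, with a median of -0.75, against -0.13 for the members, 0.03 for signalling and 0.10 for death execution.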

How the data were processed

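RNA-seq was compared between 2 shGm26917 and 2 shNC FGSC libraries, grouped by their labels. The authors deposited 1 table of 12701 genes in CPM. Per the submitters' processing notes, mm10, RSEM 1.2.28, Bowtie2 2.1.0 and edgeR were used, while the sources used here do not give rRNA removal or strand use in counting. The second-highest library of every listed gene reached 1.003 CPM or more, so genes below that were left out upstream, and all 53 members entered the fit with no further filter. The deposited fold changes and p-values of the authors were not used. Reads could not be recovered from the CPM, so depth is unknown and no counting intervals are given.

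CPM were transformed as log2(CPM + 0.5), where a log2 fold change is shGm26917 over shNC, and tested with limma 3.58.1 (R 4.3.3; trended, robust moderation), two-sided, over all genes. Of 54 entries that met the rule, the patch copy of Traf5 was dropped. Positions of all 53 members equal those of GENCODE M21. Levels per kilobase used the union of exons. A few genes are not reported here by name, nor drawn by name in the figures, but stay in the tests and counts. Any other member could be named, and from each pathway list the 3 called genes with the smallest p in each direction. Members and lists were chosen with earlier results of these data known. Alternatives were pseudocounts of 0.1 and 1, other scalings, a filter of 5 CPM in 2 libraries, chromosomes only, the study's thresholds, the replicate block and each library left out. Another was a fit with neither a trend nor robust moderation, called the fit with no trend below.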

Additional observations from a re-analysis of the deposited data

How the results depend on the processing

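No member changed sign of a called value under any alternative run. The number of members called, 21 (6 higher, 15 lower), was 19 to 22 under the other pseudocounts, scalings, library sizes that leave out mitochondrial genes and the targeted locus, chromosomes only and the fit with no trend, and 17 of the 40 members left by the filter of 5 CPM in 2 libraries. It was 8 with the study's thresholds applied to the limma fit, 2 higher and 6 lower. With each library left out it was 13 to 24, with 4 to 8 higher and 9 to 16 lower. Tnfrsf8 was lost with upper-quartile (limma adjusted p = 0.0538) and median-ratio scaling (0.0501) and with no trend (0.0645). Birc2, Cflar and Tnfrsf22 were lost with no trend, where Traf3ip1 and Traf3ip2 were gained. Casp8ap2 was gained with library sizes that leave out mitochondrial genes and the targeted locus (limma adjusted p = 0.0466). The count of signalling genes was 7 with no trend, against 12, and 8 to 14 with each library left out. That of death execution genes was 3 with the filter of 5 CPM, against 5, and 1 to 7 with each library left out. With the replicate block 24 members were called: the numbers in the labels are shared between groups, but same-numbered libraries deviated together with a correlation of only 0.057, so they share a number and no more is drawn from the pairing. The median of all genes lay between -0.014 and 0.008 in all fits. The causes of these differences were not tested. Depth is unknown here, so how far it limits the members under 5 CPM could not be measured.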
